A study of Homo sapiens with 4 samples.

Results

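The ErbB family of growth factor receptors was described together with its ligands and an inhibitor of the receptors: 10 genes, chosen by name, among the 57768 gene entries of the RNA-seq data. The receptors are EGFR, ERBB2 and ERBB3, the ligands are AREG, EREG, HBEGF, TGFA, BTC and NRG1, and the inhibitor is ERRFI1. All 10 had an entry in every library. The family was picked with the difference between the genotypes known, so that difference is given for its members as a description. Where members are counted in the fit across all genes, the counts are no independent test.

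ErbB receptors are tyrosine kinases at the cell surface. An EGF-like ligand, cut from a precursor in the membrane by a metalloprotease, brings receptors together in pairs, and the kinases then phosphorylate each other's tails. Adaptor proteins bound to these tails activate the RAS-ERK and PI3K-AKT pathways, and transcription of feedback inhibitors follows. In liver, EGFR signalling is known for its part in hepatocyte proliferation after injury, and the receptor is a much studied target in cancer.

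The RNA came from WT cells, sequenced as 2 libraries, and from cells of the genotype C/EBPβ enh-/-, also sequenced as 2 (the deletion libraries). In the latter, CRISPR/Cas9 had removed both alleles of an enhancer of CEBPB, the gene of the transcription factor C/EBPβ. All 4 were labelled HepG2, an established human liver cancer cell line, and were grown without further treatment in medium with fetal bovine serum. Whether the WT cells carried the blank CRISPR/Cas9 vector, and whether the deletion libraries came from 1 clone or several, is not given in the sources used here. Nothing in the labels says that the libraries of a genotype came from separate cultures, so p-values measure only the spread between libraries, which may be technical. The values are FPKM, the number of fragments scaled to transcript length and to the mapped fragments of the library, which allows levels of different genes to be compared. In these bulk libraries, fewer cells with a transcript and less of it per cell cannot be told apart.

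CEBPB, checked first, had 30.6 and 19.2 FPKM in the WT libraries against 12.4 and 11.8 FPKM in the deletion libraries. Of 16 markers of hepatocytes and HepG2 cells, albumin and alpha-fetoprotein among them, all 16 were under 1 FPKM in all 4 libraries, and their summed level was 0.567 to 0.665 FPKM in WT and 0.785 to 0.945 FPKM in deletion cells. The libraries of both genotypes thus lacked transcripts that define HepG2 cells. The label may therefore not name the cells that were sequenced, which was not tested, and every value is one of cells labelled HepG2. Of 5 epithelial markers, KRT8 and KRT18 were abundant while EPCAM and CDH1 were under 0.01 FPKM in every library. The summed level of the 5 was 648.2 to 797.3 FPKM in WT and 238.01 to 238.02 FPKM in deletion cells. The sum of 5 fibroblast markers was 285.2 to 357.4 and 210.7 to 247.4 FPKM. Most of it was VIM, at 232 and 308 against 190.0 and 138 FPKM. COL3A1 was higher in both deletion libraries, at 33.3 and 31.9 against 45.8 and 55.7 FPKM. PDGFRB was lower in both, at 4.15 and 5.59 against 1.52 and 2.27 FPKM. COL1A1 overlapped, at 15.5 and 11.4 against 10.1 and 14.9 FPKM, and COL1A2 was near 0. The sum of 5 leukocyte markers was 3.43 to 4.12 and 2.29 to 7.88 FPKM, nearly all of it CD68. Deletion library 1 stood apart in estimated depth and in composition. Its estimated depth was the lowest, at about 21800000 fragments against 39100000 to 48200000 in the others. Such an estimate can be off by a whole multiple, and the entries above 0 numbered 24770 against 25404 to 26716. The 5 highest genes of deletion library 1 held 35.1% of its summed FPKM, against 18.8% to 27.4% in the others. Over the 12491 genes with a mean of at least 1 FPKM, the median log2 fold change between deletion and WT cells was −0.14, and the 6 members tested are also given with this value subtracted.

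Of the 10 members, 6 had a mean of at least 1 FPKM over the 4 libraries and entered the fit across all genes: EGFR, ERBB2, ERBB3, HBEGF, NRG1 and ERRFI1. In the fit (limma on log2(FPKM + 1) with Benjamini-Hochberg adjustment), 0 of these 6 had an adjusted p under 0.05, beside 1.46% of all tested genes, and 3 had an unadjusted p under 0.05, beside 20.8% of all tested genes. Both deletion libraries lay below both WT libraries for EGFR and ERBB2, beside 37.5% of all tested genes. Both lay above both WT libraries for HBEGF, beside 15.1% of all tested genes. The libraries of the genotypes overlapped for ERBB3, NRG1 and ERRFI1. The median log2 fold change of the 6 was −0.20. Since the choice of the family used this contrast, nothing is read from these counts.

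**Figure D1:**
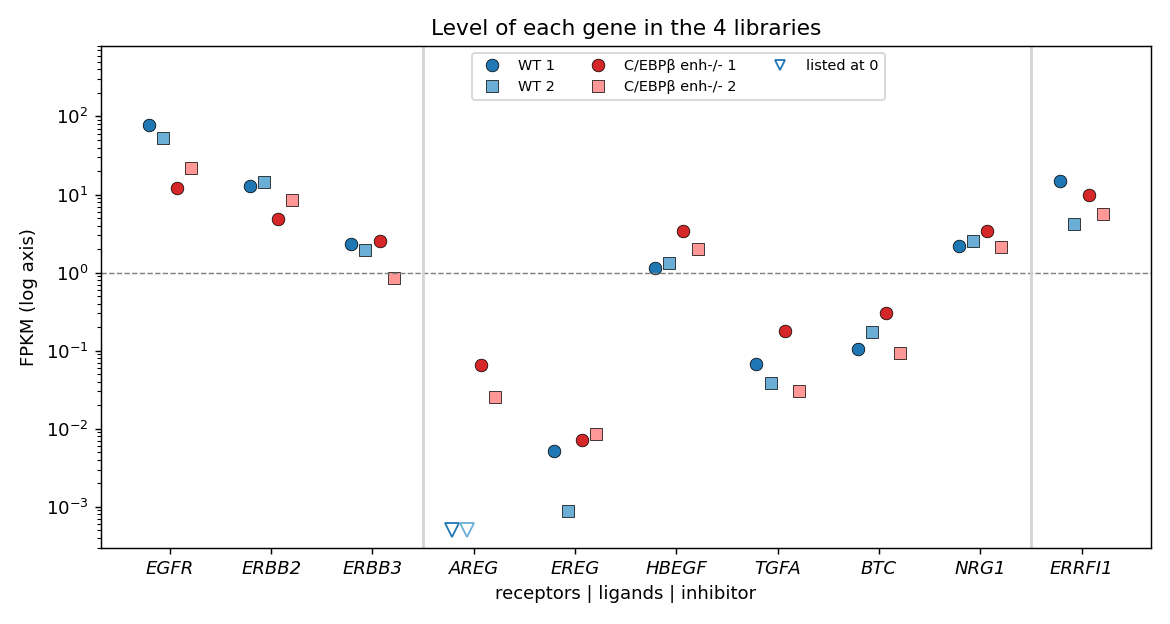
FPKM of the 10 genes (log axis) in each of the 4 libraries. Circles are libraries 1 and squares libraries 2, blue for WT and red for the deletion libraries (C/EBPβ enh-/-), open triangles mark values listed at 0, and the dashed line is at 1 FPKM. EGFR lies between 52.5 and 77 FPKM in WT and between 12.1 and 21.9 FPKM in deletion cells, while 4 ligands stay below the dashed line in every library.

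EGFR, the receptor for most EGF-like ligands, was the most abundant member in every library and the one with the widest gap between genotypes. WT libraries 1 and 2 had 77 and 52.5 FPKM, and deletion libraries 1 and 2 had 12.1 and 21.9 FPKM. Each deletion library was below each WT library. The mean was 64.7 ± 17.3 FPKM (SD, n = 2) in WT and 17.0 ± 6.94 FPKM (SD, n = 2) in deletion cells, or 26.2% of the WT level. The fitted log2 fold change came to −1.90 (standard error 0.33), and −1.76 once the median over genes was subtracted. The log2 differences of single pairs of libraries ran from −2.58 to −1.23. Within a genotype, library 2 minus library 1 was −0.54 in WT and 0.81 in deletion cells. The gap between genotypes therefore exceeded the spread within them in every pair. The WT libraries placed EGFR above 93.0% and 88.7% of all tested genes, and the deletion libraries above 58.9% and 77.1%.

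EGFR (ENSG00000146648.11) lies on the plus strand of chromosome 7 of GRCh37, from 55086710 to 55279321. The 597 tested genes of that chromosome had a median log2 fold change of −0.20, and 8 of them had a lower value than EGFR. Within 1 Mb, the 15 other tested genes had a median of −0.18, of which 5 lay below both WT libraries in both deletion libraries and 3 above, beside 37.5% and 15.1% of all tested genes. SEC61G, a subunit of the protein translocation channel of the endoplasmic reticulum and an upstream neighbour, had 108 and 153 FPKM in WT against 237 and 139 FPKM in deletion cells. LANCL2, the neighbour on the other side, had 6.34 and 7.56 FPKM against 12.6 and 8.24 FPKM. SEC61G thus overlapped between genotypes, and LANCL2 was above both WT libraries in both deletion libraries. The single neighbour with an adjusted p under 0.05 was the snoRNA gene SNORA15, at 5.58 and 3.49 FPKM in WT cells and listed at 0 in both deletion libraries. EGFR-AS1, a long non-coding RNA on the opposite strand inside EGFR, had 2.57 and 1.99 FPKM against 0.442 and 1.42 FPKM. Whether fragments were counted by strand is not given in the sources used here, so EGFR-AS1 and EGFR cannot be fully told apart, although the level of EGFR was far higher.

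Promoter sequences from RefSeq (GRCh38.p14 table, placed on GRCh37 by exact match) were found for 8 of the 10 genes, with 10 start sites in all. In the 250 bases before each start, both strands were searched for TTGCNNAA, a core shared by C/EBP sites, for the AP-1 site TGANTCA, for the GC box GGGCGG and for the cyclic AMP response element TGACGTCA. These occur in 9.05%, 6.57%, 42.6% and 1.65% of the 35114 promoters of the table. The sequences of 4 members are shown 5′ to 3′, with every match in capitals. These members were picked by expression: a receptor that was lower, a ligand that was higher, the inhibitor, and a ligand near 0. A link between these sequences and the genotype difference was not tested. In HBEGF, the GC boxes that begin 63 and 58 bases before the start overlap by 1 base.

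EGFR, chr7:55086460-55086709, plus strand: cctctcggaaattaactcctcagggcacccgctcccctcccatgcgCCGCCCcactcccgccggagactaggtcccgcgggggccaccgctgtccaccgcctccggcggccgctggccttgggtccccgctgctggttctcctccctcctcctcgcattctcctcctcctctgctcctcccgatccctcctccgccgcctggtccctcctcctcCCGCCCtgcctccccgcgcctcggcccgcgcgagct
ERRFI1, chr1:8086370-8086619, minus strand: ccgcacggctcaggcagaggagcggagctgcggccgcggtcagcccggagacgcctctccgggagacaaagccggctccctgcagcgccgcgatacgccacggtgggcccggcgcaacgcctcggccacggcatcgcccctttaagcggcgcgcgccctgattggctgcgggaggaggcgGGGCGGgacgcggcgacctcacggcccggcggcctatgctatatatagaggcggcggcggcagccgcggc
HBEGF, chr5:139726189-139726438, minus strand: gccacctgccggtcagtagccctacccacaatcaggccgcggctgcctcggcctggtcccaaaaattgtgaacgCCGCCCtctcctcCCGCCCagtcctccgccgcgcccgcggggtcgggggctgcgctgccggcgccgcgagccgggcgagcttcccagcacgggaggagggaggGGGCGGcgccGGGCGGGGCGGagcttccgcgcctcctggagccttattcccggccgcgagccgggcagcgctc
AREG, chr4:75310603-75310852, plus strand: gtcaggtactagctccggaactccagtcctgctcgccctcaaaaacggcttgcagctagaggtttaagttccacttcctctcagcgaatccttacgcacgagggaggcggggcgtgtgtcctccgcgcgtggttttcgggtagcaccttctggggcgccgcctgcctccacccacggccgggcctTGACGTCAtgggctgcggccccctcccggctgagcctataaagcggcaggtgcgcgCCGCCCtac

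The EGFR window is 73.6% G and C and holds 2 GC boxes, beginning 204 and 36 bases before the start, and neither TTGCNNAA nor TGANTCA. ERRFI1, at 75.2%, has a single GC box 70 bases before its start, and HBEGF, at 76.4%, has 5 GC boxes. AREG has a TGACGTCA 65 bases before its start and a GC box at 9 bases. A second RefSeq start of EGFR lies inside the gene, with its window at chr7:55177282-55177531, and this window of 38.8% G and C holds the only TTGCNNAA match of the 10 windows, 57 bases before the start, and 2 matches to TGANTCA. The ERBB2 window, chr17:37844097-37844346, has 1 match to TGANTCA and no GC box, and the windows of EREG and BTC have none of the 4 motifs. These matches describe letters in short windows and are not binding sites.

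ERBB2, which has no known ligand and serves as the preferred partner of the other receptors, had 12.9 and 14.4 FPKM in WT against 4.87 and 8.60 FPKM in deletion cells. Both deletion values were below both WT values. The mean was 13.6 ± 1.06 FPKM (SD, n = 2) against 6.74 ± 2.64 FPKM (SD, n = 2), 49.5% of the WT level, and the log2 fold change was −0.96 (standard error 0.29), and −0.82 after subtracting that median. ERBB2 (ENSG00000141736.9) lies on the plus strand of chromosome 17, from 37844167 to 37886679. Chromosome 17 had a median log2 fold change of −0.47 over its 721 tested genes, and the 28 other tested genes within 1 Mb of ERBB2 one of −0.56. Of these 28 neighbours, 20 lay below both WT libraries in both deletion libraries and 0 lay above, beside 37.5% and 15.1% of all tested genes, and ERBB2 differed in the same direction as these 20. In the same region, the adaptor gene GRB7 had 5.83 and 4.93 FPKM in WT against 3.81 and 1.02 FPKM in deletion cells. MIEN1, which overlaps the end of ERBB2 on the opposite strand, fell from 27.2 and 29.5 FPKM to 11 and 12.0 FPKM (log2 fold change −1.23, standard error 0.21, adjusted p = 0.0486, limma). Its level was above that of ERBB2 in every library, and without knowledge of the strand, fragments from their overlap cannot be told apart.

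ERBB3, a receptor with little kinase activity of its own that binds neuregulins and recruits PI3K, was the least abundant of the 3 member receptors. Its FPKM was 2.33 and 1.96 in WT and 2.52 and 0.863 in deletion cells. The deletion libraries were thus the highest and the lowest of the 4, and they differed from each other by −0.92 on the log2 scale, more than the log2 fold change of −0.29 (standard error 0.35) between genotypes, or −0.15 with the median over genes subtracted. The gene (ENSG00000065361.10) spans 56470583 to 56497289 on the plus strand of chromosome 12, whose tested genes had a median of −0.22.

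The makeup of the pool of the 3 member receptors, which leaves out ERBB4, was compared within each library, where scaling between libraries plays no part. The summed FPKM of EGFR, ERBB2 and ERBB3 was 92.2 and 68.8 in WT and 19.4 and 31.3 in deletion cells. EGFR made up 83.5% and 76.3% of this sum in WT, against 62.0% and 69.8% in deletion cells. ERBB2 made up 14.0% and 20.9% against 25% and 27.4%. EGFR thus took a smaller share, and ERBB2 a larger share, in both deletion libraries than in either WT library. The ratio of EGFR to ERBB2 was 5.98 and 3.65 in WT and 2.48 and 2.54 in deletion cells. The share of ERBB3 was 2.53%, 2.84% and 2.75% in WT libraries 1 and 2 and deletion library 2, and 12.9% in deletion library 1 alone.

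**Figure D2:**
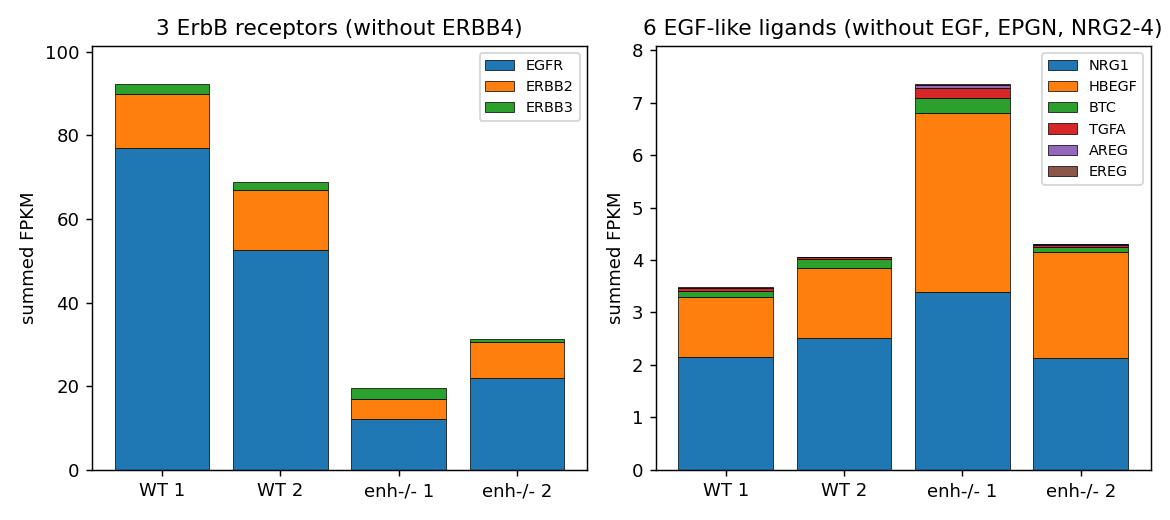
Summed FPKM of the 3 member receptors, without ERBB4 (left), and of the 6 member ligands (right) in each library, as stacked bars. The receptor sum is 92.2 and 68.8 in WT and 19.4 and 31.3 in deletion cells, and the sum of these 6 ligands is 3.48 and 4.06 in WT and 7.35 and 4.31 in deletion cells. EGF, EPGN, NRG2, NRG3 and NRG4 are not in it.

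HBEGF, a ligand of EGFR and ERBB4 that binds heparin, was the only tested member ligand whose libraries separated by genotype. Its FPKM was 1.15 and 1.33 in WT and 3.41 and 2.02 in deletion cells, so both deletion libraries were above both WT libraries. The mean was 1.24 ± 0.133 FPKM (SD, n = 2) against 2.71 ± 0.982 FPKM (SD, n = 2), a ratio of 2.19. The log2 fold change was 0.70 (standard error 0.29) and 0.84 after subtracting the median over genes, on a scale that understates the change of a gene this low. At the approximate depth of each library, these values correspond to about 134 to 291 fragments. HBEGF (ENSG00000113070.6) lies on the minus strand of chromosome 5, from 139712428 to 139726188. The 25 other tested genes within 1 Mb had a median log2 fold change of 0.13, and in both deletion libraries 10 of them were above and 3 below both WT libraries, beside 15.1% and 37.5% of all tested genes.

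NRG1, a neuregulin that binds ERBB3 and ERBB4, was the most abundant of the 6 member ligands in both WT libraries and in deletion library 2. It had 2.16 and 2.51 FPKM in WT and 3.39 and 2.14 FPKM in deletion cells (log2 fold change 0.16, standard error 0.27, and 0.30 with the median over genes subtracted). Deletion library 2 was the lowest of the 4 and library 1 the highest, so the genotypes overlapped. NRG1 (ENSG00000157168.14) lies on chromosome 8, on the plus strand from 31496738 to 32713184, and the median over the tested genes of that chromosome was 0.21. HBEGF and NRG1 together made up 92.5% to 96.3% of the summed FPKM of the 6 member ligands in every library. This share follows from which ligands are members. With the other 5 ligands added (EGF, EPGN, NRG2, NRG3 and NRG4), the sum was 23.8 and 16.7 FPKM in WT and 23.5 and 17.0 FPKM in deletion cells, overlapping between genotypes. HBEGF and NRG1 then made up 13.9% and 23.0% of it in WT and 28.9% and 24.5% in deletion cells, and NRG2 and NRG4 made up 51.8% to 83.6%. The ratio of HBEGF to NRG1 was 0.531 in both WT libraries, and 1.0 and 0.943 in deletion libraries 1 and 2. Within a genotype this ratio varied little although both genes were higher in deletion library 1 than in library 2.

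The other 4 member ligands were near the lower end of what these libraries could measure. TGFA, a ligand of EGFR, had 0.0671 and 0.0386 FPKM in WT and 0.177 and 0.0307 FPKM in deletion cells. BTC (betacellulin, a ligand of EGFR and ERBB4) had 0.105 and 0.175 FPKM against 0.302 and 0.0936 FPKM. For each of them deletion library 1 was the highest and library 2 the lowest of the 4, and the values stand for about 7.27 to 20.5 fragments. EREG (epiregulin), at 0.00522 and 0.000880 FPKM against 0.00711 and 0.00849 FPKM, and AREG (amphiregulin), listed at 0 for WT libraries 1 and 2, and with 0.0650 and 0.0254 FPKM in deletion cells, stand for about 2 fragments or fewer in any library. No difference in EREG or AREG was detectable at this depth. AREG has a near-identical copy in GRCh37, AREGB, and its 250-base window matched that build at 2 places. Fragments could be split between them, and AREGB was listed at 0 in 3 libraries and at 0.00430 FPKM in deletion library 1. TGFA (ENSG00000163235.11) lies on the minus strand of chromosome 2, from 70674416 to 70781325. EREG (ENSG00000124882.3, plus strand, from 75230862 to 75254466), AREG (ENSG00000109321.6, plus strand, from 75310853 to 75320722) and BTC (ENSG00000174808.7, minus strand, from 75669969 to 75719733) are neighbours on chromosome 4.

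ERRFI1, also called MIG6, binds the kinase domain of EGFR and blocks it, and is itself induced by receptor signalling. WT libraries 1 and 2 had 14.8 and 4.24 FPKM of ERRFI1, and deletion libraries 1 and 2 had 9.78 and 5.60 FPKM. The WT libraries were the highest and the lowest of the 4, 3.49-fold apart, and both deletion values lay between them. The log2 fold change was −0.11 (standard error 0.52) and 0.03 after that subtraction, and its sign turned positive when libraries were centred on their medians. Pairs of libraries differed by −1.26 to 1.04 on the log2 scale, so no difference between genotypes could be resolved. ERRFI1 (ENSG00000116285.8) lies on the minus strand of chromosome 1, from 8064464 to 8086369.

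Set against EGFR in the same library, ERRFI1 was at 19.2% and 8.08% of the EGFR level in WT and at 81.2% and 25.6% in deletion cells. Both deletion ratios were above both WT ratios, although ERRFI1 itself overlapped between genotypes. The ratio of EGFR to the 6 summed member ligands was 22.1 and 12.9 in WT and 1.64 and 5.07 in deletion cells. Against all 11 ligands it was 3.24 and 3.15 in WT and 0.512 and 1.29 in deletion cells, so both ratios were lower in both deletion libraries. Deletion library 1 was the extreme for each.

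**Figure D3:**
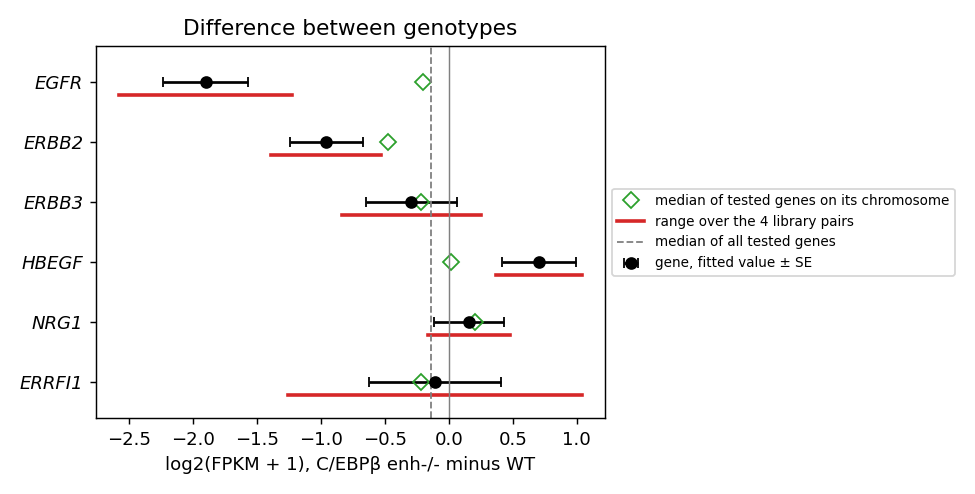
Difference in log2(FPKM + 1) between deletion and WT cells for the 6 members tested. Black points are fitted values with standard errors, red lines span the 4 pairs of libraries (1 from each genotype), green diamonds are medians over the tested genes of the same chromosome, and the dashed line is the median of all tested genes, −0.14. The red lines of EGFR, ERBB2 and HBEGF do not reach 0.

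In WT cells, the mean levels ran, from high to low, in the order EGFR, ERBB2, ERRFI1, NRG1, ERBB3, HBEGF, BTC, TGFA, EREG and AREG. Neighbours in this order whose WT values overlapped were ERBB2 and ERRFI1, and NRG1 and ERBB3. In deletion cells the means were 17.0 FPKM for EGFR, 7.69 for ERRFI1, 6.74 for ERBB2, 2.77 for NRG1, 2.71 for HBEGF and 1.69 for ERBB3. There ERRFI1 overlapped ERBB2, and NRG1, HBEGF and ERBB3 overlapped each other.

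The expression pattern of EGFR over the 4 libraries was then compared with that of the 8538 other genes at a mean of at least 5 FPKM, by the root mean square difference of log2(FPKM + 1) centred on each gene's mean. The nearest was ENSG00000224930.2, an entry without a symbol, at 0.099, with 57.1 and 46.2 FPKM in WT and 9.02 and 18.2 FPKM in deletion cells. JDP2, a basic leucine zipper repressor that binds AP-1 sites, followed at 0.12, with 25.7 and 21.0 FPKM against 3.73 and 8.62 FPKM. AHCYL1, a regulator of inositol trisphosphate receptors, was the third at 0.12, with 48.7 and 30.8 FPKM against 7.96 and 16.1 FPKM. All 3 had, like EGFR, a higher value in WT library 1 than 2 and a lower one in deletion library 1 than 2. This follows from picking them by their nearness to EGFR. The likeness rests on 4 libraries and is a description.

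The rest of the pathway was read from 8 lists of 72 genes grouped by role, of which 66 were tested. Of these 66, 0 were lower and 0 higher at an adjusted p under 0.05 (limma), beside 1.21% and 0.248% of all tested genes. At an unadjusted p under 0.05, 16 were lower and 3 higher (24.2% and 4.55%), beside 16.9% and 3.86% of all tested genes. With each library centred on its median these counts were 9 and 6 (13.6% and 9.09%), beside 10.1% and 9.14% of all tested genes, so the balance of directions depended on the scaling in the lists and over all genes. The median log2 fold change of the 66 was −0.21, beside −0.14 over all tested genes. When each library was left out in turn, it ranged from −0.33 to −0.11, beside −0.19 to −0.10 over all tested genes. Both deletion libraries lay below both WT libraries for 29 of the 66 (43.9%) and above for 11 (16.7%), beside 37.5% and 15.1% of all tested genes, against which the counts of single lists should be read. None of the genes named from these lists passed the threshold, and their values are given as measured.

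The remaining receptor and ligands of the family differed in both directions. ERBB4, the neuregulin receptor not counted above, had 1.78 and 0.979 FPKM in WT and 0.0294 and 0.00361 FPKM in deletion cells, a mean of 1.20% of the WT level. Its mean over the 4 libraries was under 1 FPKM, so it was not tested. NRG4, a ligand of ERBB4, had 13.7 and 8.43 FPKM in WT against 4.05 and 3.19 FPKM in deletion cells (log2 fold change −1.36, standard error 0.28, adjusted p = 0.0723, limma). EPGN (epigen, a low-affinity ligand of EGFR) went the other way, with 0.370 and 0.393 FPKM against 3.62 and 0.885 FPKM (log2 fold change 1.09, standard error 0.44, adjusted p = 0.226, limma). EPGN passed the filter on low values only through deletion library 1. NRG2, a neuregulin, had 6.22 and 3.59 FPKM in WT against 8.15 and 8.23 FPKM in deletion cells (log2 fold change 0.67, standard error 0.28, adjusted p = 0.230, limma), so that both deletion values were above both WT values and close to each other. Of the 6 genes of this list, 3 were tested, 1 below and 2 above both WT libraries, beside 37.5% and 15.1% of all tested genes. EPGN is among the 2 above.

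Ligand shedding depends on the protease ADAM17 and on the iRhoms RHBDF1 and RHBDF2, which bring it to the cell surface. ADAM17 had 12.0 and 12.5 FPKM in WT against 6.59 and 4.15 FPKM in deletion cells (log2 fold change −1.08, standard error 0.26, adjusted p = 0.0903, limma). RHBDF1 had 5.79 and 7.01 FPKM against 3.21 and 1.84 FPKM (log2 fold change −1.09, standard error 0.28, adjusted p = 0.101, limma). Together with RHBDF2, they were the 3 genes of the 6 in the list with deletion values below both WT values, beside 37.5% of all tested genes. ADAM9, a further metalloprotease, was the 1 gene above both WT values, at 31.5 and 31.4 against 36.9 and 37.3 FPKM, beside 15.1%. ADAM10, another sheddase of EGF-like ligands, had 12.2 and 16.9 FPKM against 12.8 and 16.0 FPKM.

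Among 10 adaptors and proximal effectors the median log2 fold change was −0.23, and 4 lay below both WT libraries, beside 37.5% of all tested genes, and 0 above. SHC1, the adaptor that links phosphorylated receptors to GRB2, had 54.8 and 86.9 FPKM in WT and 21.3 and 39.8 FPKM in deletion cells (log2 fold change −1.22, adjusted p = 0.132, limma). VAV2, an exchange factor for small GTPases, had 5.40 and 6.53 against 3.63 and 3.26 FPKM. Among 10 genes of the RAS, RAF, MEK and ERK cascade the median was −0.28, with 5 below and 3 above both WT libraries, beside the same 37.5% and 15.1%. MAP2K2, which encodes MEK2, had 83.1 and 109 FPKM against 46.5 and 64.6 FPKM (log2 fold change −0.78, adjusted p = 0.161, limma).

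Of 8 PI3K-AKT genes, with a median of −0.31, 4 lay below and 2 above both WT libraries, again beside 37.5% and 15.1%. AKT1 had 30.1 and 66.4 against 22.7 and 36.3 FPKM, and its libraries overlapped. Of 11 tested genes of receptor ubiquitination and sorting and of the LRIG inhibitors, with a median of −0.48, 7 lay below and 2 above both WT libraries, beside 37.5% and 15.1% of all tested genes. RNF41, a ubiquitin ligase of ERBB3, had 31.6 and 19.4 against 17.6 and 12.6 FPKM. HGS, which sorts ubiquitinated receptors to lysosomes, had 38.4 and 37.1 against 23.9 and 22.6 FPKM (log2 fold change −0.68, standard error 0.21, adjusted p = 0.14, limma).

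**Figure D4:**
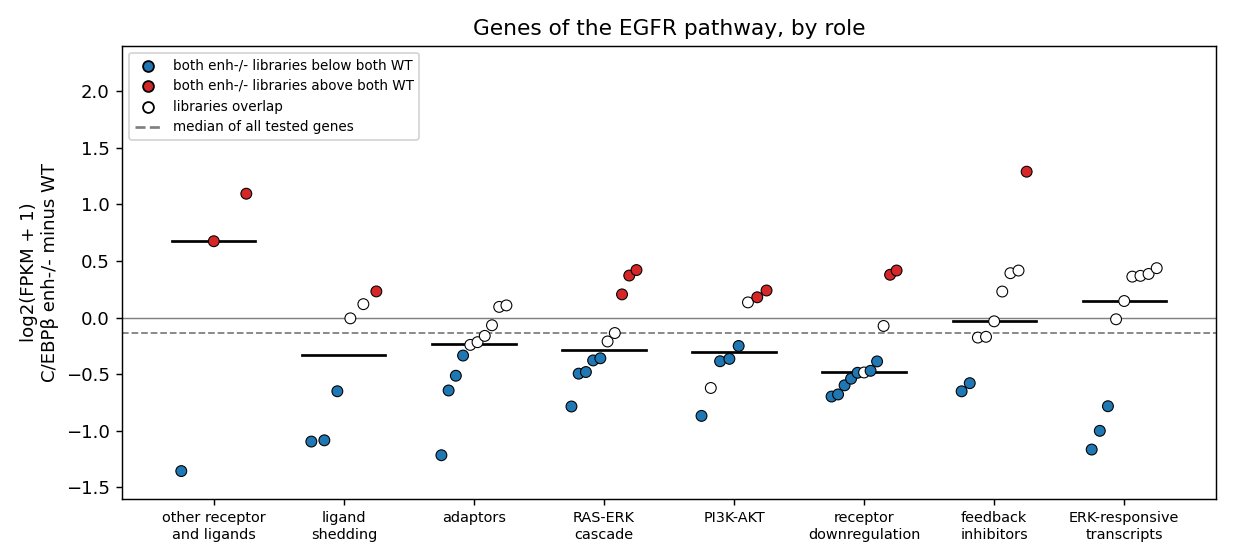
Difference in log2(FPKM + 1) between deletion and WT cells for the 66 tested pathway genes, 1 point a gene, grouped by role. Blue points have both deletion libraries below both WT libraries, red points above, and open points overlap. Short bars are list medians and the dashed line is the median of all tested genes. The lowest value is that of NRG4, −1.36, and the highest that of DUSP4, 1.29.

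Several transcripts that ERK signalling induces differed widely between the deletion libraries, which was noticed after their values had been seen. ETV5, an ETS factor and ERK target, had 5.37 and 6.18 FPKM in WT, 22.2 in deletion library 1 and 2.30 in library 2, a 9.65-fold gap between the deletion libraries. FOS had 2.06 and 2.54 FPKM in WT and 6.62 and 1.60 FPKM in deletion libraries 1 and 2, and FOSL1 had 0.810 and 1.23 FPKM against 2.96 and 0.743 FPKM. In all 3 the deletion libraries lay on either side of the WT libraries. ETV4, JUN and IER3 had the same order, with deletion library 1 at 4.08, 2.87 and 2.54 times the level of library 2. Of the 9 tested genes of this list, 6 were highest in deletion library 1 and at least 2 times their level in library 2, beside 4.23% of all tested genes. FOSL1, counted among the 6, passed the filter on low values only through deletion library 1. This description was set after the values of these same genes had been seen, so the count is no test of the list.

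Of the feedback inhibitors of RAS-ERK signalling, 3 of 9 tested genes met that description, beside 4.23% of all tested genes. This count is no test either. DUSP5, a phosphatase of ERK, had 1.55 and 1.46 FPKM in WT and 5.43 and 0.738 FPKM in deletion libraries 1 and 2. DUSP6, which dephosphorylates ERK in the cytoplasm, had 1.88 and 1.55 FPKM against 4.09 and 0.984 FPKM. DUSP4, a nuclear relative, had 0.868 and 1.92 FPKM against 8.29 and 2.51 FPKM (log2 fold change 1.29, standard error 0.48, adjusted p = 0.195, limma). It was the 1 tested gene of the list above both WT libraries in both deletion libraries, and 2 lay below. The shares of all tested genes were 15.1% above and 37.5% below. SOCS5, which promotes EGFR degradation, had 4.98 and 6.0 FPKM against 2.88 and 3.38 FPKM. In SPRY4 and EGR1, both under a mean of 1 FPKM and not tested, deletion library 1 was the highest at 1.91 and 1.04 FPKM, 5.10 and 5.81 times library 2.

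Other ERK-responsive genes did not follow library 1. CCND1, which encodes cyclin D1, had 27.4 and 45.3 FPKM in WT and 13.9 and 16.6 FPKM in deletion cells (log2 fold change −1.17, standard error 0.29, adjusted p = 0.0957, limma). MYC had 109 and 108 FPKM against 46.1 and 62.8 FPKM (log2 fold change −1.0, standard error 0.23, adjusted p = 0.0878, limma). Both deletion values were below both WT values for each, as for PHLDA1. Among the 6 tested members, 3 were highest in deletion library 1 (ERBB3, HBEGF and NRG1), beside 28.8% of all tested genes, while EGFR and ERBB2 were lowest there. This is the library of lowest estimated depth and of most concentrated composition, and the part of either in these values was not tested.

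**Figure D5:**
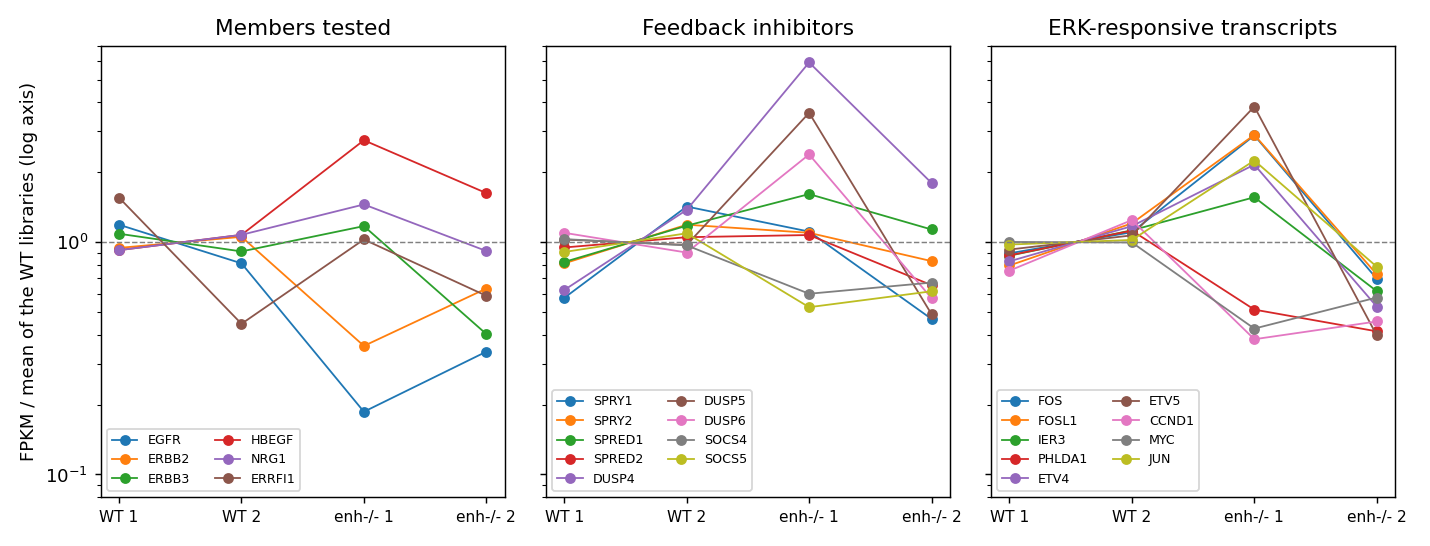
FPKM in each library divided by the mean of the WT libraries (log axis) for the 6 members tested, the 9 tested feedback inhibitors and the 9 tested ERK-responsive transcripts; lines join the values of a gene and imply no order of libraries. In deletion library 1, DUSP5, DUSP6, FOS and ETV5 lie above the WT mean and EGFR and ERBB2 below it, and in library 2 all 6 lie below it.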

How the data were processed

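The RNA-seq data comprised 4 libraries, 2 a genotype by the genotype label. The authors deposited 1 FPKM value per gene and library for 57815 entries. The submitters' processing notes name TopHat2 2.0.13, Cufflinks, edgeR and hg19 (GRCh37), without their roles; scaling between libraries and strand are not given in the sources used here. The labels' extraction text describes chromatin immunoprecipitation although the molecule is total RNA. Since FPKM is relative to its library, a few abundant genes shift all others.

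Chromosome Y pseudoautosomal copies were left out, and 55535 of 57768 identifiers matched a symbol (GENCODE release 44 on GRCh37). Genotypes were compared on log2(FPKM + 1) for the 12491 genes whose mean FPKM reached 1, with limma 3.58.1 in R 4.3.3 (trend, two-sided, Benjamini-Hochberg, threshold 0.05), tested on simulated data. Exact permutation of 2 against 2 libraries cannot give p below 0.333. Depth was read from the spacing of low values of single-transcript genes, of which 47.3% to 51.7% lay within 10% of a whole fragment. The depths are therefore estimates, and whole counts could not be had. Values that are whole at 1 depth are also whole at its multiples, so an estimate could be off by such a factor. Fragments per gene use merged exon lengths.

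The members and lists were chosen with earlier results of these data known. Named genes were the members, CEBPB, the 3 genes nearest to EGFR, every pathway gene past the threshold and the 2 of each list with the largest absolute fold change; others were named after their values were seen. Some genes that this rule selects are not reported here. Alternatives were rescaled totals, a pseudocount of 0.1, a fit without trend, a filter at a mean FPKM of 5 or none, median centring, a replicate block and leaving out each library. Figures were drawn with matplotlib 3.10.9, and tables made with pandas 2.3.3 and numpy 2.4.6 under Python 3.11.15.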

Additional observations from a re-analysis of the deposited data

How the results depend on the processing

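Against 151 lower and 31 higher genes at an adjusted p under 0.05 (limma), 61 were lower and 23 higher with rescaled totals, 68 and 31 with median centring, 93 lower with the replicate block, 20 higher with a mean FPKM of at least 5, and 0 lower and 0 higher without the filter (2657 and 1107 at an unadjusted p under 0.05). Leaving out each library gave 9 to 22 lower and 3 to 20 higher genes; a lone library is then assumed to vary like the others. Pathway genes past the threshold stayed at 0 in each direction under all 11 alternatives. With a mean FPKM of at least 5, which tests fewer genes, 1 member, EGFR, passed as lower; it was chosen with this contrast known, so the call supports nothing.

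The log2 fold change of EGFR, −1.90, ranged from −2.31 to −1.5 when each library was left out and from −1.96 to −1.73 otherwise. Without deletion library 1 it was −1.5, that of ERBB2 −0.60 and that of HBEGF 0.43 (0.70 with all libraries). HBEGF ranged from 0.43 to 0.98 over left-out libraries, and was 1.03 with a pseudocount of 0.1. Left-out libraries changed the sign of ERBB3 (−0.75 to 0.16), NRG1 (−0.08 to 0.40) and ERRFI1 (−0.91 to 0.69), and median centring that of ERRFI1 (0.06). Centring moved the median of all tested genes by 0.17. Deviations of same-numbered libraries correlated at 0.0094 over genes (not independent of each other); the libraries share only a number, and the replicate block made no member or pathway call. Depth limits AREG, EREG, TGFA and BTC.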
